A study of Mus musculus with 12 samples.

Results

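A20, encoded by Tnfaip3, is a ubiquitin-editing enzyme that dampens signalling to the transcription factor NF-κB, and the report follows its mRNA and that of the proteins that act with it or on the same ubiquitin chains. The 9 genes were taken by symbol: Tnfaip3, the A20-binding proteins Tnip1, Tnip2 and Tnip3, the deubiquitinase Cyld, the cellular inhibitor of apoptosis (cIAP) genes Birc2 and Birc3, and the adaptors Traf1 and Traf2. Every probe set paired with 1 symbol equal to one of these was used, which gave 9 genes of 19938 with such a probe set, and 10 probe sets (2 for Birc2) of the 23410 tested. Messenger RNA was measured on Affymetrix Mouse Gene 1.0ST arrays in EL-4 T cells, a mouse T lymphoma line, as log2 robust multichip average (RMA) values. All cells had a pretreatment of 30 min, either with cycloheximide (CHX), which blocks protein synthesis, at 10 μg/ml in DMSO, or with DMSO alone. They then received PMA at 10 ng/ml with ionomycin at 1 μM (P/I), which together mimic signals downstream of the T cell receptor, for 0 h (unstimulated) or 4 h. Each of the 4 groups held 3 biological replicates, 12 arrays in all, of 1 cell line, and the total time in CHX of the unstimulated cells was not given.

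In NF-κB signalling, receptors recruit TRAF adaptors, and these bring in the cIAP ubiquitin ligases, which build ubiquitin chains that serve as platforms for the kinases that activate NF-κB. A20 and CYLD edit or remove such chains, and the TNIP proteins (also called ABIN-1, ABIN-2 and ABIN-3) are A20-binding proteins. Several of these genes are themselves NF-κB targets and are known as negative feedback on the pathway, in T cells as in other immune cells.

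Promoter sequence was matched by symbol to RefSeq windows of mouse build GRCm38.p6, each running from 250 bases before to 50 bases after an annotated start, and 9 of 9 genes had a window (11 windows in all). The 150 bases up to the annotated start are shown for A20 and for its 3 binding proteins, because these 4 genes, whose proteins act together, differed in how P/I and CHX moved their mRNA. Capitals mark matches to the NF-κB (κB) consensus motif on either strand. The stretches lie at chr10:19015411-19015560 (minus strand) for Tnfaip3, chr11:54962941-54963090 (minus strand) for Tnip1, chr5:34513980-34514129 (minus strand) for Tnip2 and chr6:65590248-65590397 (plus strand) for Tnip3, each upstream of the first annotated base of its gene.
Tnfaip3: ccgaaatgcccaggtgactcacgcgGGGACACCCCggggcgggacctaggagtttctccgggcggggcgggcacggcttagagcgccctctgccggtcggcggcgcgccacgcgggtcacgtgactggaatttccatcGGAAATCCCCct
Tnip1: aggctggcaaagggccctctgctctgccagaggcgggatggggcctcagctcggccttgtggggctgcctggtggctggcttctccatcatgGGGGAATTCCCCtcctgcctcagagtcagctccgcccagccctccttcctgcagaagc
Tnip2: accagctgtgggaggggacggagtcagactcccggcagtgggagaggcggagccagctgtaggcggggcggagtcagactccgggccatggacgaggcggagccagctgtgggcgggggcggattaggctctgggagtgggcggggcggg
Tnip3: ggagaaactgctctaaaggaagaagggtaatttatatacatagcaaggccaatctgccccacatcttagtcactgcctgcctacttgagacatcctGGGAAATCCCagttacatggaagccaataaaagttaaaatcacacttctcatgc

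The Tnfaip3 stretch held 2 matches, at -125 to -116 and at -12 to -3 counted from the annotated start, and an AP-1 motif (TGANTCA, both strands) at -136 to -130, the only AP-1 match in these 11 windows. The window of the other annotated Tnfaip3 start held neither motif. Tnip1 had 3 overlapping matches at -58 to -47 that form a single palindrome, and Tnip3 had 1 at -54 to -45. No match lay in the Tnip2 window. Among the other genes Cyld had 1 match at -155 to -146, and the windows of Birc2, Birc3, Traf1 and Traf2 had none. Of all 32851 RefSeq windows of 300 bases, 8.46% held the κB consensus and 7.81% held the AP-1 motif. A match describes these letters only. Whether a match bears on the mRNA changes was not tested.

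Before the comparisons, the 12 arrays were compared with each other. Replicate 1 of each group stood somewhat apart, with correlations to replicates 2 and 3 of its group between 0.983 and 0.991, against 0.992 to 0.994 between replicates 2 and 3, so values without the 4 arrays numbered 1 are given where they changed a call. Of 10 T cell markers 9 were measured, with gene means from 7.87 (Cd247) to 12.4 (Cd3g). Means ran from 4.22 (Ms4a1) to 7.09 (Cd79b) for 5 B cell markers and from 4.36 (Lyz2) to 5.36 (Fcgr3) for 6 myeloid markers. For 3 measured erythroid and fibroblast markers they ran from 4.59 (Dcn) to 6.72 (Col1a1). Of these markers 4 of 9 T cell, 2 of 5 B cell and 1 of 6 myeloid ones passed the test for P/I in either direction, and 5, 2 and 1 passed for CHX during P/I. None of the 3 erythroid and fibroblast markers passed either test. The shares of all probe sets called are given with each comparison. Their part in the results was not tested. In RNA from whole cultures, fewer responding cells and less RNA per cell cannot be told apart.

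The plot of RMA values by group shows all 10 probe sets. Tnip2 and Tnip3 had their highest values in all 3 arrays of P/I-stimulated cells in DMSO. Tnfaip3, Birc3, Traf1, Traf2, Tnip1 and both probe sets of Birc2 had their highest values in all 3 arrays of cells given both CHX and P/I. Over all 12 arrays Cyld lay between log2 8.99 and 9.74, the first Birc2 probe set between 6.71 and 7.61 and the second between 5.94 and 6.64.

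**Figure D1:**
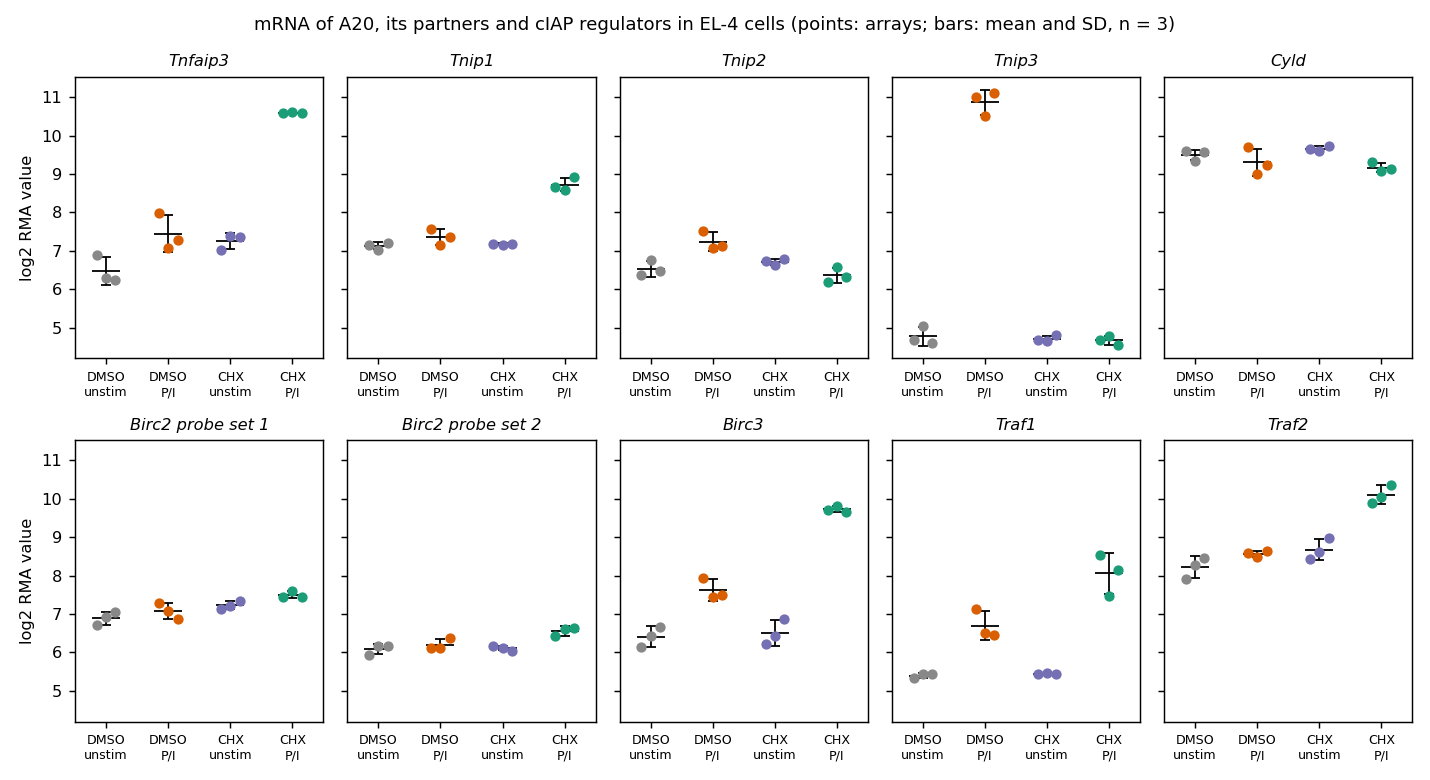
Each panel holds 1 probe set of the 9 genes, with its log2 RMA value on the y axis and the 4 groups on the x axis. Each point is an array, in replicate order from left to right, with the group mean and SD (n = 3) as bars. Tnip3 stands at a mean of 10.87 with P/I in DMSO and at 4.67 to 4.77 in the other groups, while Tnfaip3 reaches 10.60 with CHX and P/I.

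The first question was which of these mRNAs changed with P/I in cells whose protein synthesis was intact. In DMSO-treated cells 5 of the 10 probe sets, for Tnfaip3, Tnip2, Tnip3, Birc3 and Traf1, rose with P/I at an adjusted p under 0.1 (limma, Benjamini-Hochberg over all 23410 probe sets), against a background of 9.05% of all probe sets called higher. None was called lower, against 8.42% of all probe sets called lower. At an unadjusted p under 0.05 (limma) 0 probe sets were lower, against 12.1% of all probe sets. The median difference over the 10 probe sets was log2 0.53, beside log2 -0.03 over all probe sets tested. The genes were chosen with earlier results of these data known. Counts set beside the background, here and below, are therefore descriptive only.

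A20 mRNA rose modestly. Tnfaip3 (probe set 10368144) read log2 6.89, 6.29 and 6.25 in the 3 unstimulated DMSO arrays and 7.99, 7.08 and 7.28 in the P/I arrays. The lowest stimulated array lay above the highest unstimulated one, and replicate 1 was the highest of both groups. The difference was log2 0.97 (SE 0.22), or 1.96-fold (95% interval 1.40 to 2.75, adjusted p = 0.0114 from limma), and it was log2 0.91 without the arrays numbered 1.

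Tnip3, which encodes ABIN-3, had the third largest RMA difference upwards of all 23410 probe sets. Probe set 10538791 read log2 4.68, 5.04 and 4.59 in unstimulated DMSO-treated cells and 10.995, 10.50 and 11.10 with P/I. The unstimulated mean stood at the 19.6th percentile of all probe sets in that group and the stimulated mean at the 95.5th. The unstimulated mean of 4.77 lay within the range of the myeloid markers (4.36 to 5.36), and whether the probe set was above background there was not tested. P/I and unstimulated arrays differed by log2 6.10 (SE 0.16, adjusted p = 1.29e-09, limma), or 68.5-fold between RMA values, which is only a lower bound on the change of the mRNA if the low level was background.

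The other Tnip genes moved far less. Tnip2 (ABIN-2; probe set 10529402) read log2 6.35, 6.75 and 6.47 without stimulation and 7.51, 7.07 and 7.14 with P/I, so that the groups did not overlap. It rose by log2 0.71 (SE 0.14, 1.64-fold, adjusted p = 0.00466 from limma). Tnip1 (ABIN-1; probe set 10385941) read log2 7.15, 7.02 and 7.20 without stimulation and 7.55, 7.16 and 7.36 with P/I. These groups overlapped, and the difference of log2 0.23 (95% interval -0.01 to 0.47) was not called (adjusted p = 0.246 from limma). Without P/I-stimulated DMSO replicate 2 it was log2 0.33 and passed (adjusted p = 0.0826 from limma).

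The cIAP genes differed from each other. Birc3, which encodes cIAP2 (probe set 10590801), read log2 6.14, 6.43 and 6.67 in unstimulated DMSO-treated cells and 7.95, 7.44 and 7.49 with P/I. The groups were apart by more than the whole spread of the unstimulated arrays, and Birc3 rose by log2 1.21 (SE 0.19, 2.31-fold, adjusted p = 0.000858 from limma). Birc2, which encodes cIAP1 and lies next to Birc3 on the chromosome, had 2 probe sets, the second (probe set 10590799) annotated by a single cDNA. The first (probe set 10590791) read log2 6.71, 6.91 and 7.04 without stimulation and 7.30, 7.08 and 6.87 with P/I, and the groups overlapped. The differences of log2 0.19 (95% interval -0.07 to 0.46) and log2 0.11 (95% interval -0.11 to 0.33) did not pass the threshold.

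Of the adaptors, Traf1 rose and Traf2 did not pass the test. Traf1 (probe set 10481949), an adaptor that itself lacks the ligase domain of other TRAF proteins, read log2 5.33, 5.44 and 5.43 without stimulation and 7.13, 6.51 and 6.44 with P/I. No array overlapped, and the difference was log2 1.30 (SE 0.23, 2.46-fold, adjusted p = 0.00245 from limma). The unstimulated Traf1 mean of log2 5.40 stood at the 39.0th percentile, and whether it was above background was not tested. Traf2 (probe set 10480760) read log2 7.93, 8.29 and 8.47 without stimulation and 8.58, 8.49 and 8.64 with P/I. Its groups did not overlap, but the nearest arrays stood at 8.47 and 8.49, and the difference of log2 0.34 (95% interval -0.03 to 0.71) missed the threshold (adjusted p = 0.255 from limma). With the replicate number as a block in the fit, the same difference passed (adjusted p = 0.0318 from limma). Cyld (probe set 10573803) read log2 9.59, 9.34 and 9.56 without stimulation and 9.69, 8.99 and 9.23 with P/I. The groups overlapped, with a difference of log2 -0.19 (95% interval -0.52 to 0.13, adjusted p = 0.517 from limma). Without the arrays numbered 1 the difference was log2 -0.34 and passed the threshold (adjusted p = 0.0660 from limma).

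The next comparison asked how the stimulated levels changed when protein synthesis was blocked, setting P/I with CHX against P/I in DMSO. It uses the same stimulated DMSO arrays as the first comparison, so the effects of both are given side by side and not related to each other. With CHX 7 probe sets of 6 genes (Tnfaip3, Tnip1, Birc2, Birc3, Traf1 and Traf2) were higher, against 13.2% of all probe sets called higher. Tnip2 and Tnip3 were lower, against 12% called lower. The median over the 10 probe sets was log2 0.89, beside log2 0.01 over all probe sets.

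A20 mRNA was 8.89-fold higher with CHX. Tnfaip3 read log2 10.59, 10.61 and 10.60 in the 3 arrays of cells given CHX and P/I, against 7.08 to 7.99 with P/I in DMSO. The CHX arrays differed from each other by an SD of 0.01, and the lowest of them lay far above the highest DMSO array. The difference of log2 3.15 (SE 0.22, 95% interval 2.66 to 3.64, adjusted p = 2.28e-06 from limma) ranked 19th from the top of 23410 probe sets.

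Tnip3 moved the other way and had the lowest difference of all 23410 probe sets. With CHX and P/I it read log2 4.69, 4.78 and 4.54, within the range of unstimulated cells in DMSO on 2 of 3 arrays and just below it on the other. The difference from P/I in DMSO was log2 -6.20 (SE 0.16, 95% interval -6.54 to -5.85, adjusted p = 1.18e-09 from limma), which is 73.3-fold between RMA values, with the same limit at the low level. Tnip2 was also lower, at log2 6.19, 6.57 and 6.31 with CHX and P/I, with no overlap with P/I in DMSO. Its difference was log2 -0.88 (SE 0.14, 1.84-fold lower, adjusted p = 0.000775 from limma). Tnip1, which had not passed the test for P/I in DMSO, was higher with CHX at log2 8.65, 8.585 and 8.91, above every other array. The difference was log2 1.36 (SE 0.11, 2.57-fold, adjusted p = 6.66e-06 from limma).

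The ligase and adaptor genes were higher with CHX during P/I. Birc3 read log2 9.72, 9.82 and 9.66, which was 4.31-fold above P/I in DMSO (log2 2.11, SE 0.19, adjusted p = 1.05e-05 from limma). Traf2 read log2 9.89, 10.06 and 10.37, a difference of log2 1.54 (SE 0.17, 2.90-fold, adjusted p = 5.62e-05 from limma). Both stood above all arrays of the other groups.

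Traf1 read log2 8.55, 7.48 and 8.15 with CHX and P/I, the widest spread of any of these probe sets in a group (SD 0.54), and its lowest CHX array still exceeded the highest DMSO array. The difference was log2 1.36 (SE 0.23, 2.57-fold, adjusted p = 0.00117 from limma). The increases of Birc2 were small and alike in both probe sets. The first read log2 7.45, 7.61 and 7.46 with CHX and P/I (difference log2 0.42, SE 0.12, adjusted p = 0.0252 from limma) and the second 6.42, 6.61 and 6.64 (log2 0.35, SE 0.10, adjusted p = 0.0247 from limma). The call of the first probe set was lost without P/I-stimulated DMSO replicate 3 (log2 0.32, adjusted p = 0.108 from limma). Cyld read log2 9.30, 9.07 and 9.13, overlapping the arrays with P/I in DMSO, and its difference of log2 -0.14 (95% interval -0.47 to 0.19) did not pass.

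CHX on its own was tested in unstimulated cells. Their total time in CHX was not given, so the effect of CHX alone over the 4 h of P/I may not be covered. None of the 10 probe sets passed, with or without limma's variance moderation, against 0.0299% of all probe sets called higher (7 probe sets) and 0% called lower, and 3 were higher at an unadjusted p under 0.05, against 4.13% of all probe sets. The largest difference among the 10 was that of Tnfaip3, which read log2 7.02, 7.39 and 7.37 with CHX, above each of the 3 DMSO arrays. The difference of log2 0.78 (95% interval 0.30 to 1.27) ranked 34th of 23410 but had an adjusted p = 0.486 from limma. Without the 4 arrays numbered 1 (left out after the data had been seen), the difference was log2 1.11 and passed (adjusted p = 0.00152 from limma). The first Birc2 probe set (log2 0.34) and Traf2 (log2 0.45) were the others at an unadjusted p under 0.05, with adjusted p = 0.640 and 0.690 from limma. Tnip3 read log2 4.67, 4.65 and 4.80 with CHX alone, a difference of log2 -0.06 (95% interval -0.41 to 0.28), and Tnip1 and Birc3 differed by log2 0.04 and 0.09.

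With CHX present in both arms, P/I was then compared with no stimulation. In CHX-treated cells 6 probe sets, for Tnfaip3, Tnip1, Birc3, Traf1, Traf2 and the second of Birc2, rose with P/I, against 10.2% of all probe sets called higher. Cyld fell, against 11.6% called lower. Where the unstimulated cells were in CHX for less time than the stimulated ones, P/I and CHX exposure cannot be told apart here. The plot of P/I effects sets these values beside those in DMSO.

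**Figure D2:**
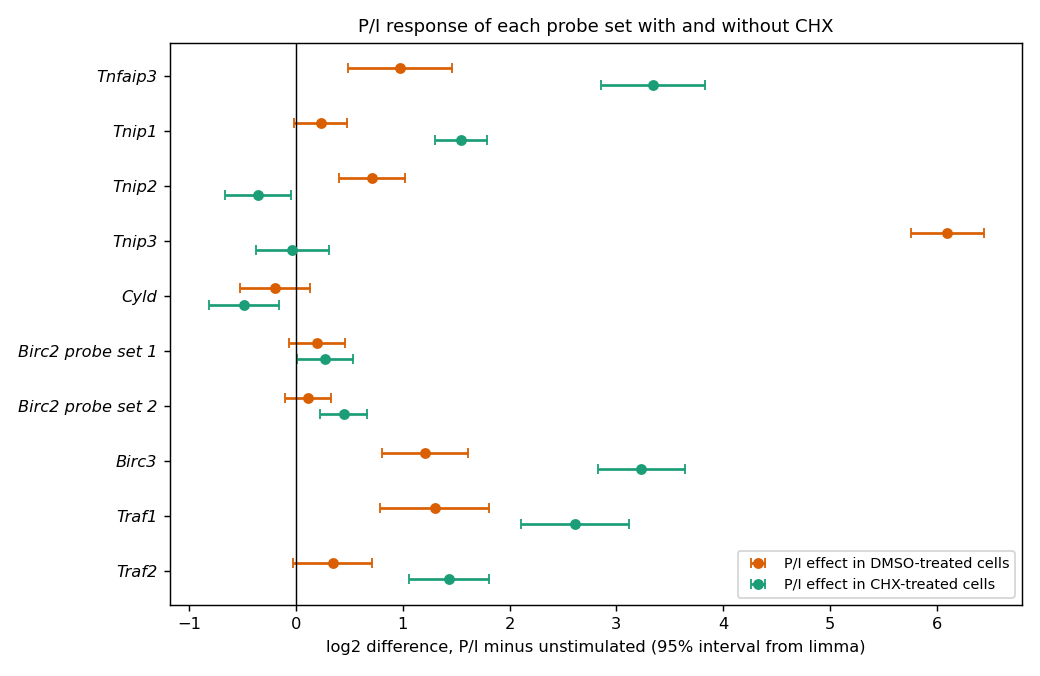
P/I effect on each probe set (x axis, log2 difference of P/I from unstimulated cells; y axis, probe sets) in DMSO-treated cells (orange) and in CHX-treated cells (green). Points are limma estimates and bars their 95% intervals from 3 arrays per group. Tnip3 has an effect of 6.10 in DMSO and of -0.04 in CHX, whereas Tnfaip3 goes from 0.97 to 3.34.

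Tnfaip3 and Birc3 had the largest of these increases. The increase of Tnfaip3 was log2 3.34 (SE 0.22, 10.1-fold, 95% interval 7.22 to 14.2, adjusted p = 1.96e-06 from limma), and Birc3 rose by log2 3.23 (SE 0.19, 9.40-fold, adjusted p = 6.03e-07 from limma). Traf1 stood at log2 5.44, 5.46 and 5.44 in unstimulated CHX-treated cells and rose by log2 2.61 (6.11-fold). Whether that low level was above background was not tested. Tnip1 stood at log2 7.18, 7.14 and 7.19 and rose by log2 1.54 (2.92-fold). Traf2 rose by log2 1.43 (2.70-fold) from log2 8.44, 8.61 and 8.98, and the second Birc2 probe set rose by log2 0.45 (1.36-fold). The first Birc2 probe set, at log2 0.27 (adjusted p = 0.161), was not called, but it passed after quantile normalization (log2 0.37, adjusted p = 0.0304), with only these 2 groups in the fit (adjusted p = 0.0749) and without P/I-stimulated DMSO replicate 1 (adjusted p = 0.0924), all from limma, which made 7 probe sets higher.

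Tnip3 was not called with P/I in the presence of CHX, with a difference of log2 -0.04 (95% interval -0.38 to 0.31) and overlapping groups. Tnip2 read log2 6.73, 6.62 and 6.78 with CHX alone, above each array with CHX and P/I, and its difference of log2 -0.35 (95% interval -0.66 to -0.04) missed the threshold over all probe sets (adjusted p = 0.122 from limma). With only these 2 groups in the fit it passed (adjusted p = 0.0673 from limma). It also passed without P/I-stimulated DMSO replicate 1 (adjusted p = 0.0599) and without CHX and P/I replicate 2 (log2 -0.46, adjusted p = 0.0717), both from limma. Cyld read log2 9.64, 9.59 and 9.74 with CHX alone and fell by 0.49 on the log2 scale (SE 0.15, 1.40-fold lower, adjusted p = 0.0433 from limma). That call was lost after median centring of the arrays (adjusted p = 0.110) and without CHX and P/I replicate 2 (adjusted p = 0.140), CHX and P/I replicate 3 (adjusted p = 0.127) or CHX unstimulated replicate 3 (adjusted p = 0.135), all from limma.

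Whether the P/I effect itself differed between CHX and DMSO was tested as an interaction in limma. The limit on time in CHX, given above for P/I in CHX-treated cells, holds here too. The P/I effect was larger with CHX for 5 probe sets, those of Tnfaip3 (by log2 2.37, SE 0.32), Birc3 (2.02, SE 0.26), Tnip1 (1.31, SE 0.16), Traf1 (1.31, SE 0.33) and Traf2 (1.09, SE 0.24), against 6.04% of all probe sets. It was smaller for Tnip3 (log2 -6.13, SE 0.22, adjusted p = 6.53e-08) and Tnip2 (log2 -1.065, SE 0.20, adjusted p = 0.00569), against 7.62% of all probe sets. Adjusted p for the 5 larger effects lay between 0.000341 (Tnip1) and 0.0259 (Traf1), all from limma. The interaction of Tnip3 was the lowest of all 23410 probe sets. Cyld and both probe sets of Birc2 did not pass, with differences of log2 -0.30, 0.08 and 0.33. The second Birc2 probe set passed without the arrays numbered 1 (log2 0.46, adjusted p = 0.0568 from limma) and after quantile normalization (log2 0.39, adjusted p = 0.0890 from limma).

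By the rule of the study's methods, a primary response gene is higher with P/I and at least as high with CHX during P/I, and a secondary response gene is higher with P/I and significantly lower with CHX during P/I. Tnfaip3, Birc3 and Traf1 were primary (3 of 10 probe sets, against 2.27% of all probe sets), and Tnip2 and Tnip3 were secondary (2 of 10, against 4.79%). Tnip1, Traf2, Cyld and Birc2 were in neither class because their P/I effect in DMSO did not pass. Traf2 counted as primary with the replicate number as a block in the fit. The genes for A20 and for its binding proteins ABIN-2 and ABIN-3 thus fell in different classes, and ABIN-1 in neither.

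The 3 Tnip genes were compared directly. Because probe sets differ in brightness, levels of different genes were not set against each other, and the difference Tnip3 minus Tnip1, or Tnip3 minus Tnip2, was taken within each array and followed between groups. Over both pairs and the 4 contrasts, 8 exact two-sided permutation tests were run, in which 3 arrays against 3 cannot give a p below 0.1.

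Tnip3 minus Tnip1 lay between log2 -2.61 and -1.98 in unstimulated DMSO arrays and between 3.34 and 3.75 with P/I, a change of log2 5.87. With CHX and P/I it lay between log2 -4.36 and -3.80, a change of log2 -7.56 from P/I in DMSO. In CHX-treated cells P/I changed it by log2 -1.58, where Tnip1 itself rose by log2 1.54 and Tnip3 differed by log2 -0.04. The groups were apart in each of these contrasts, and each gave the smallest exact p, 0.1 (adjusted p = 0.114 over 8 tests). CHX alone changed it by log2 -0.11 with overlapping groups (exact permutation p = 0.8).

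Tnip3 minus Tnip2 lay between log2 -1.89 and -1.67 in unstimulated DMSO arrays and between 3.43 and 3.97 with P/I, a change of log2 5.38. It changed by log2 -5.32 with CHX during P/I, to between -1.79 and -1.51. The smaller changes with CHX alone (log2 -0.25) and with P/I in CHX (log2 0.32) also left the groups apart. All 4 had an exact permutation p of 0.1 (adjusted p = 0.114). With CHX alone Tnip3 itself differed by log2 -0.06 and Tnip2 by log2 0.18. With P/I in CHX Tnip3 differed by log2 -0.04 and Tnip2 by log2 -0.35, and none of these differences was called by limma. The plot of differences within arrays shows that arrays of a group lay close together, with SDs between 0.05 and 0.33 over both pairs, against changes of log2 5.87 and 5.38 with P/I in DMSO.

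**Figure D3:**
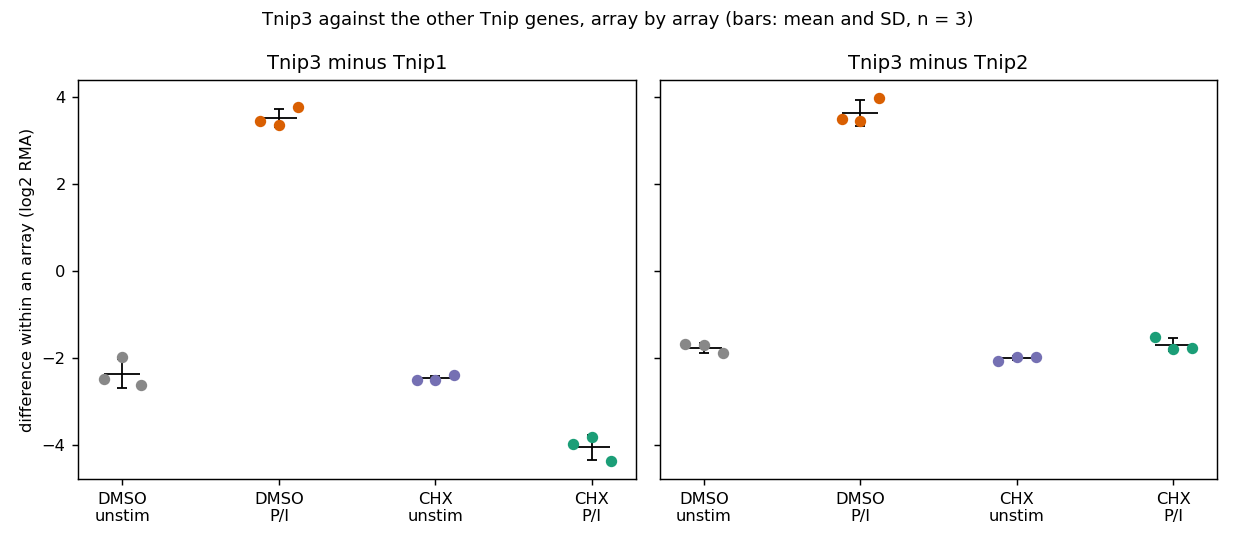
Difference of Tnip3 from Tnip1 (left) and from Tnip2 (right) within each array, in log2 RMA (y axis), in the 4 groups (x axis). Each point is an array, and bars give the mean and SD of the 3 arrays. In both panels the arrays with P/I in DMSO, at means of 3.51 and 3.63, lie apart from those of the other groups, at means of -4.04 to -1.69. Only shifts between groups are read, since the sign of a value depends on the brightness of each probe set.

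Genes whose pattern over the 12 arrays was most like that of Tnip3 were looked up among 2071 probe sets whose group means spanned at least log2 1. They were the adhesion receptor Crtam (Pearson r 0.997), the transporter Slc5a12 (0.997), Smim3 (0.996), the costimulatory receptor Cd27 (0.996) and the olfactory receptor Olfr1157 (0.996). Each rose with P/I in DMSO, by log2 2.42 (Smim3) to 4.04 (Olfr1157), and P/I effects in CHX lay between log2 -0.22 and 0.17. The 5 genes most like Tnfaip3 were Efl1 (r 0.986), Smndc1 (0.984), Tmem128 (0.983), Zfp719 (0.983) and Ing3 (0.982), with differences of log2 0.77 to 2.06 with CHX during P/I. The arrays share their groups, so these correlations over 12 points mostly describe how the 4 group means lie relative to each other.

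Other genes of the pathway were taken from 6 lists of 59 genes, of which 54 were measured. Together 8 of them rose (14.8%, against 9.05% of all probe sets) and 7 fell (13%, against 8.42%) with P/I in DMSO, with a median of log2 0.02. With CHX during P/I 14 were higher (25.9%, against 13.2%) and 8 lower (14.8%, against 12%), with a median of log2 0.14. In CHX-treated cells 16 rose (29.6%, against 10.2%) and 8 fell (14.8%, against 11.6%) with P/I. With CHX alone none passed the limma test, and 5 were higher and 1 lower at an unadjusted p under 0.05, against 4.13% and 2.74% of all probe sets.

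**Figure D4:**
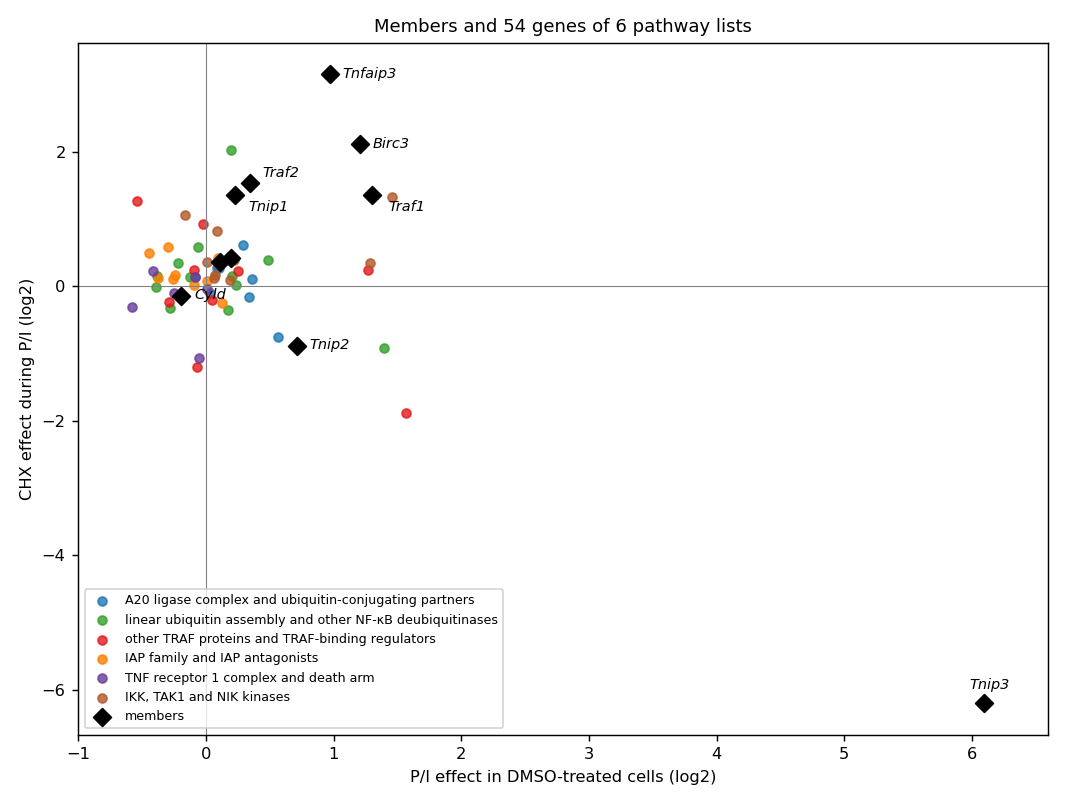
P/I effect in DMSO-treated cells (x axis, log2) against the CHX effect during P/I (y axis, log2) for the 10 member probe sets (black diamonds) and for 54 genes of 6 pathway lists (coloured points). The stimulated DMSO arrays enter both axes with opposite sign. Tnip3 lies at 6.10 and -6.20, apart from all other points, and the nearest list gene in that direction is Traf5 at 1.56 and -1.89.

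Of 8 partners in the A20 ligase complex and its ubiquitin-conjugating enzymes, 2 rose with P/I in DMSO and none fell. Of all probe sets, 9.05% rose and 8.42% fell. Rnf11, a RING protein of the A20 complex, rose by log2 0.57 and was lower with CHX during P/I by log2 -0.75 (adjusted p = 0.00313 and 0.000309 from limma). Itch, a ubiquitin ligase of the same complex, rose by log2 0.36 (adjusted p = 0.0162 from limma). Tax1bp1, the adaptor that links A20 to its substrates, was higher with CHX during P/I by log2 0.62 and so was the conjugating enzyme gene Ube2d3 by log2 0.27.

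Of 12 genes for linear ubiquitin assembly and other NF-κB deubiquitinases, 1 rose and 2 fell with P/I (all probe sets: 9.05% and 8.42%). Otud7b, which encodes the A20-related deubiquitinase Cezanne, rose by log2 1.40 and was lower with CHX by log2 -0.91 (adjusted p = 6.4e-05 from limma). The subunit genes of the linear ubiquitin ligase moved in different directions. Rnf31, its catalytic subunit HOIP, was higher with CHX during P/I by log2 2.02 (SE 0.19), while Sharpin fell with P/I by 0.40 and Rbck1 (HOIL-1) fell by 0.28 on the log2 scale. Rbck1 was also lower with CHX during P/I (log2 -0.33). The deubiquitinase gene Usp7 was higher with CHX during P/I by log2 0.59.

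Among 9 other TRAF proteins and TRAF-binding regulators, 2 rose and 2 fell with P/I (all probe sets: 9.05% and 8.42%). Traf5, an adaptor of TNF receptor family members, rose by log2 1.56 and was lower with CHX by log2 -1.89, and Tank, a TRAF-binding adaptor, rose by log2 1.27. Traf7 fell by 0.29 and Traf3ip2, which encodes the interleukin-17 receptor adaptor Act1, fell by 0.54 on the log2 scale. With CHX during P/I, Traf3ip2 (log2 1.26) and Trafd1 (log2 0.93) were higher, and Traf3ip3 (log2 -1.20) and Traf7 (log2 -0.23) were lower together with Traf5.

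Among all probe sets 9.05% were called higher and 8.42% lower with P/I. Of 9 measured genes of the IAP family and its antagonists, only Naip6 passed the test for P/I, with a log2 difference of -0.26 (adjusted p = 0.0913 from limma). Its means in DMSO were low, at log2 4.575 without stimulation and 4.32 with P/I, and whether they were above background was not tested. Birc6, a very large IAP protein (log2 0.58), and Diablo, the mitochondrial IAP antagonist (log2 0.42), were higher with CHX during P/I. Of 7 measured genes of the TNF receptor 1 complex and its death arm, 1 rose and 2 fell with P/I, beside the same shares. Cflar, which encodes the caspase-8 inhibitor c-FLIP, rose with P/I by log2 0.72 and was lower with CHX by log2 -0.88. Casp8 fell with P/I by 0.58 and the necroptosis kinase gene Ripk3 fell by 0.41 on the log2 scale. With CHX during P/I, Tnfrsf1a, the receptor gene itself, was lower by log2 -1.07 and Ripk3 was higher by log2 0.23.

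Of 9 measured IKK, TAK1 and NIK kinase genes, 2 rose with P/I and none fell, and 5 were higher with CHX during P/I and none lower. The shares of all probe sets were 9.05% higher and 8.42% lower with P/I. With CHX during P/I they were 13.2% and 12%. Map3k14 encodes NIK, the kinase whose turnover TRAF and cIAP proteins control. Its increase was log2 1.455 (SE 0.23, adjusted p = 0.000916, limma), and it was higher with CHX by a further log2 1.32. Ikbke rose with P/I by log2 1.29. Tbk1 (log2 1.06), Ikbkb (log2 0.82), Map3k7, which encodes TAK1 (log2 0.40), and its partner gene Tab3 (log2 0.37) were higher with CHX during P/I.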

How the data were processed

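Messenger RNA of EL-4 T cells was measured on 12 Affymetrix Mouse Gene 1.0ST arrays. The authors used RMA background correction adjusted for probe sequence with quantile normalization, and deposited log2 values, and the processing notes name RMA and Partek (versions not given in the sources used here). All 12 columns were matched to samples by their labels. Symbols came from the platform annotation, and a gene was named only from probe sets with 1 symbol.

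A mean per group was fitted to all 12 arrays for each of 23410 probe sets with limma 3.58.1 in R 4.3.3 (no trend, 8 residual degrees of freedom), and calls were made at an adjusted p (Benjamini-Hochberg) under 0.1, as in the methods of the study. Differences between Tnip genes within arrays were tested by exact permutation (scipy 1.17.1). The limma step was tested on simulated data. Precision is limited by having 3 arrays in a group. The members and lists were chosen with earlier results of these data known. From each list the text names up to 4 genes with the smallest p for P/I or for CHX during P/I, plus any gene of a count of 5 or fewer, and the 5 nearest patterns to Tnip3 and Tnfaip3, predicted and small RNA genes passed over. Alternatives were a replicate block, median centring, quantile normalization, a minimum mean of log2 5, an adjusted p under 0.05, a variance trend, no moderation, fits of 2 groups, all probe sets and leaving out each array.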

Additional observations from a re-analysis of the deposited data

Results flagged for a closer look

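For 7 of the 9 genes the P/I effect in CHX-treated cells differed from that in DMSO-treated cells by limma's interaction test, and the values below are the first minus the second, each from 3 arrays per group. The P/I effect was larger with CHX for 5 of the 10 probe sets, against 6.04% of all probe sets. These were Tnfaip3 (log2 2.37), Birc3 (log2 2.02), Tnip1 (log2 1.31), Traf1 (log2 1.31) and Traf2 (log2 1.09). The P/I effect was smaller with CHX for 2 of the 10, Tnip3 (log2 -6.13) and Tnip2 (log2 -1.065), against 7.62% of all probe sets. Where the stimulated cells were in CHX for longer than the unstimulated ones, P/I and CHX exposure cannot be told apart in these differences.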

How the results depend on the processing

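Of 28 called effects of the 10 probe sets, 26 kept their call and direction under all alternatives run for them (22 for 21 effects and 21 for the 7 interactions, which a fit of 2 groups cannot give), and the exceptions, Cyld with P/I in CHX and the first Birc2 probe set with CHX during P/I, are given above. The count of probe sets lower with P/I in CHX was 1, and became 0 after median centring, 2 with 2 groups in the fit, and 0 to 2 when single arrays were left out. The count lower with P/I in DMSO went from 0 to between 0 and 1 when single arrays were left out (1 without P/I-stimulated DMSO replicate 1). Without the 4 arrays numbered 1, chosen after seeing the data, that count was 1, and 1 probe set was higher with CHX in unstimulated cells. Samples shared only a replicate number: correlations of same-numbered deviations ran from 0.06 to 0.75, against -0.58 to 0.31 for arrays with other numbers. Of 12 arrays, 11 correlated best with their own number. With the replicate block 6 probe sets rather than 5 were higher with P/I, the addition being Traf2 (log2 0.34, adjusted p = 0.0318 from limma), which then counted as primary as well, and no other call changed.

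Differences near 0 that had not passed the test changed sign in some settings. With CHX alone, Tnip3 had log2 0.0043 after median centring and -0.15 to 0.073 with single arrays left out, Tnip1 had -0.016 after quantile normalization and -0.0059 to 0.082, the second Birc2 probe set had -0.055 to 0.062 and -0.081 without the arrays numbered 1, and Birc3 had -0.098 to 0.23. With single arrays left out, Cyld had log2 -0.30 to 0.053 with CHX during P/I, Tnip3 -0.091 to 0.027 with P/I in CHX, and the first Birc2 probe set an interaction of -0.026 to 0.19. Its P/I effect in DMSO was log2 -0.0027 without the arrays numbered 1. Tnip3 minus Tnip1 changed with CHX alone by log2 0.0099 after quantile normalization and by -0.24 to 0.079 with single arrays left out. The causes were not tested. A minimum mean of log2 5 left 16838 probe sets and all 10 members.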
